A study of Mus musculus with 16 samples.

Results

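The 68 mouse genes that encode the classical axon guidance ligands and their receptors were followed through RNA counts of the cerebral cortex. They were taken by gene symbol from the 48709 genes of the count table, and comprise 34 ligands (7 class 3 semaphorins, 13 semaphorins of classes 4 to 7, 5 ephrin-A, 3 ephrin-B, 3 Slit and 3 netrin genes) and 34 receptors (9 plexins, 2 neuropilins, 9 EphA, 5 EphB, 4 Robo and 5 Unc5 or Dcc genes). The RNA came from synaptosomes (SYN), a density fraction of nerve endings that pinch off and reseal on homogenization with some postsynaptic membrane attached, and from total homogenate (TH), the cortical material set aside before that fractionation. All mice were C57BL/6, with no transgene or treatment, and no sex, given in the labels. The groups were SYN of 3 weeks, SYN of 5 months, SYN of 19 months and TH of 5 months, with 4 libraries each. The SYN libraries are described as biological replicates, and where nothing says so, as for TH, p-values measure only the spread between libraries, which may be technical. The TH libraries analysed here are of 5 months alone, so SYN can be set against TH at that age only, and the ages can be compared in SYN only.

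Guidance ligands steer growing axons and migrating cells by attraction or repulsion, and they act either after secretion or from the surface of a neighbouring cell. Secreted class 3 semaphorins bind neuropilins that pair with plexins, membrane semaphorins bind plexins directly, ephrins bind Eph receptor tyrosine kinases and can signal backwards into the cell that carries them, Slits bind Robo receptors, and netrins bind Dcc and Unc5 receptors. In the mature cortex many of these proteins remain at synapses, where they are known to act on spine number, receptor placement and synaptic plasticity, and several also guide blood vessels and oligodendrocyte lineage cells.

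Libraries held 10640232 to 21719869 counts, of which the mitochondrial rRNAs took 32.9% to 52.3% in SYN and 17.6% to 22% in TH. Markers of other cell types were present in SYN, and all 8 astrocyte and all 8 microglia marker genes passed the test as higher in SYN than in TH. So did 6 of 9 oligodendrocyte, 7 of 8 oligodendrocyte precursor and 5 of 8 neuronal synapse markers, with 1 more neuronal one called lower. In contrast, 11 of 12 endothelial and mural markers and all 7 nuclear RNA markers were called lower. Of all genes tested, 24.5% were called higher and 25.6% lower. Summed levels were 1451 to 1720 CPM in SYN and 627 to 670.0 CPM in TH for astrocyte markers, and 10310 to 12090 CPM in SYN and 4644 to 5294 CPM in TH for neuronal ones. The part of these markers in the results on SYN and TH was not tested. Some SYN libraries were set apart by these totals. For the nuclear RNA Malat1, 5 months SYN replicate 4 held 80590 counts, against 12668 to 18583 in the other 5 months SYN libraries. On mitochondrial rRNAs, 19 months SYN replicate 1 held 52.3% of its counts, against 32.9% to 33.6% in the other 19 months libraries. By the same measure 3 weeks SYN replicate 1 held 51.7%, against 42.6% to 48.6% in the other 3 weeks libraries, and 5 months SYN replicate 1 held 45.3%, against 36.1% to 39.2% in the other 5 months SYN libraries. The summed level of the guidance genes, as CPM (the usual depth-scaled counts, with TMM over all 16 libraries), was 2824 in 3 weeks SYN replicate 1 and 3568 to 3857 in the other 3 weeks libraries. It was 2903 and 2950 in 5 months SYN replicates 4 and 1 and 3292 and 3390 in replicates 3 and 2, and 2916 in 19 months SYN replicate 1 and 3292 to 3675 in the other 19 months libraries. In such bulk samples, fewer cells of a type and less RNA per cell cannot be told apart. A gene was called where the edgeR quasi-likelihood F test gave a p under 0.05 after Benjamini-Hochberg adjustment over all genes tested. Error terms after ± are SD over 4 libraries, and SE is that of the fitted log2 fold change.

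Per kilobase of exon (RPKM), Epha4, an EphA receptor that binds both ephrin classes, had the highest level of the 68 genes in each of the 4 groups. It stood at 24.9 ± 2.31 RPKM in 5 months SYN and 14.5 ± 0.968 RPKM in 5 months TH. In 5 months SYN the next in order were the class 3 semaphorin receptor Plxna1 at 21.1 ± 1.34 RPKM, the netrin receptor Unc5a at 19.6 ± 2.17, the Sema3e receptor Plxnd1 at 19.3 ± 2.13, the membrane ligand Sema6b at 18.7 ± 2.14 and Plxna4 at 17.8 ± 1.32 RPKM. Each of these 5 overlapped its neighbour in the order, while the Epha4 libraries all lay above those of Plxna1. In TH the next places went to the GPI-anchored semaphorin Sema7a at 10.6 ± 0.633 RPKM and to Epha6 at 9.61 ± 0.46 RPKM, with Plxna1, Plxna4 and Plxnd1 at 7.09 to 7.71 RPKM. At the bottom were Robo4, Epha1 and Efna4, all under 0.1 RPKM in 5 months SYN. Epha1 and Efna4 had 0 to 5 counts in every library and were tested in no comparison. Of the 68 genes, 64 passed the filter on low counts in all 4 comparisons, and Robo4 and Sema3g passed it in SYN against TH only.

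Most guidance genes were relatively more abundant in synaptosomes than in whole cortex at 5 months. Of 66 genes tested, 42 were called higher in SYN and 5 lower, where 24.5% of all 17374 genes tested were called higher and 25.6% lower (50.1% either way). The median log2 fold change was 0.54 over the guidance genes and -0.05 over all genes. For 34 of the genes all 4 SYN libraries lay above all 4 TH libraries, and for 4 all lay below. The same was not counted over all genes, so these 2 counts have no share to be set against. Ligands and receptors were called higher equally often, in 21 of 33 each. With upper-quartile scaling the median of all genes moved to -0.19, and calls over all genes were 3367 higher and 5525 lower, against 4248 and 4456 with TMM. The guidance genes then counted 38 higher and 7 lower with a median of 0.40.

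**Figure D1:**
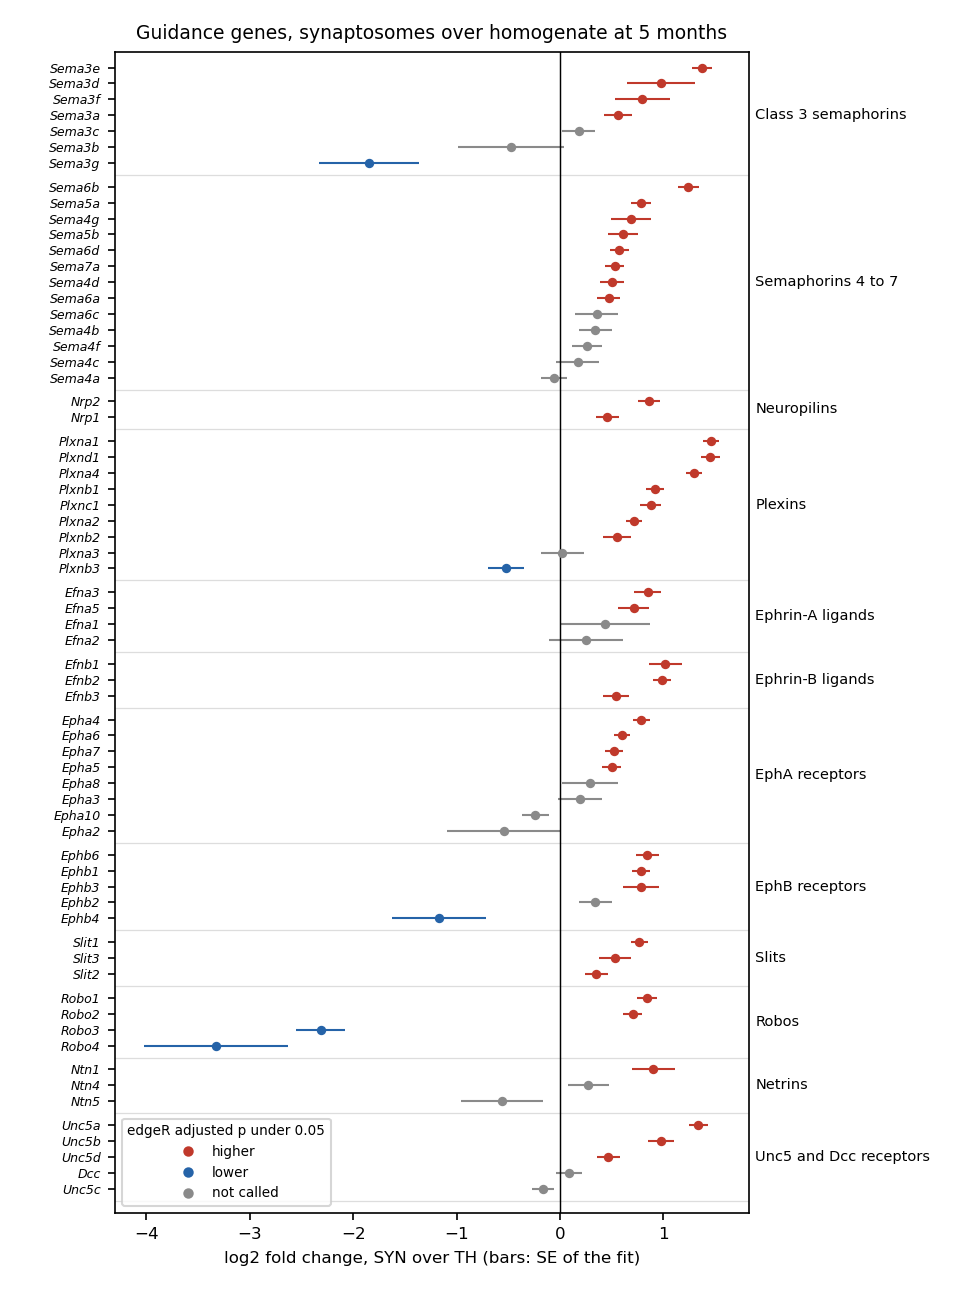
Fitted log2 fold change of SYN over TH at 5 months (x axis) for the 66 guidance genes tested, grouped by family from ligand to receptor, with SE as bars and calls by colour. The 42 genes called higher spread over every family, while the 5 called lower (Robo4, Robo3, Sema3g, Ephb4 and Plxnb3) stand to the left of 0.

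Among secreted ligands, Sema3e, which acts through Plxnd1, stood furthest above TH. Its level in the 4 libraries was 81.2, 70.2, 75.1 and 58 CPM in SYN, against 29, 26.3, 27.1 and 27.9 CPM in TH (a log2 change of 1.38 with SE 0.10 and edgeR adjusted p = 4.59e-08). Every SYN library lay above every TH library. Its receptor Plxnd1 (ENSMUSG00000030123, chromosome 6, 115954811 to 115995005) was measured at 124, 147, 159.7 and 134 CPM in SYN, against 48.3, 56.5, 54.1 and 48.1 CPM in TH (a log2 change of 1.46 with SE 0.093 and edgeR adjusted p = 1.29e-08). Again the groups did not overlap. Of 7 class 3 semaphorins, 4 were called higher, 1 lower and 2 neither. Sema3a, the founding repellent of the family, was higher by 0.56 log2 units (edgeR adjusted p = 0.0029) although its SYN replicate 4, at 25.5 CPM, lay within the TH range of 21.4 to 26.9 CPM. Sema3d averaged 14.7 ± 5.2 CPM in SYN and 7.51 ± 2.69 CPM in TH (a log2 change of 0.98 with SE 0.33 and edgeR adjusted p = 0.0296). Its groups overlapped through SYN replicate 4, at 7.11 CPM, and the call was lost without any one of SYN replicates 1, 2 and 3 or TH replicates 2 and 4 (log2 fold change 0.79 to 0.93, edgeR adjusted p 0.0599 to 0.0809), under upper-quartile scaling (edgeR adjusted p = 0.0538) and with no filter on low counts (edgeR adjusted p = 0.108). Sema3f, a class 3 ligand of Nrp2, was called higher by 0.80 (edgeR adjusted p = 0.0216), a call lost without SYN replicate 2 or 3 or TH replicate 1 or 3 and under upper-quartile scaling (edgeR adjusted p = 0.0526).

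Of the 13 membrane-bound semaphorins, 8 were called higher and none lower. Sema6b, a transmembrane ligand of Plxna4, led them with 67.4, 85.7, 76.5 and 68.3 CPM in SYN, against 29.4, 35.2, 32.4 and 29.4 CPM in TH (a log2 change of 1.24 with SE 0.099 and edgeR adjusted p = 1.1e-07). The lowest SYN library stood well above the highest TH library. Sema5a, which carries thrombospondin repeats and binds plexins, was higher by 0.78 log2 units, Sema4g by 0.68, Sema5b by 0.61, Sema6d by 0.57, Sema7a by 0.53, Sema4d by 0.50 and Sema6a by 0.47. These 7, like the other called genes given here with a fold change alone, were picked from the calls outside the naming rule. Sema4a, Sema4b, Sema4c, Sema4f and Sema6c were not called, with log2 fold changes of -0.057 to 0.36.

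All 3 transmembrane ephrin-B ligands, which can signal into their own cell, were called higher. Efnb1 was measured at 11.1, 11.7, 11.5 and 10.5 CPM in SYN, against 6.59, 5.21, 5.59 and 4.9 CPM in TH (a log2 change of 1.02 with SE 0.16 and edgeR adjusted p = 8.94e-05), and Efnb2 at 76.3, 85.2, 84.8 and 75.2 against 41.8, 38.8, 44.8 and 37.9 CPM (a log2 change of 0.99 with SE 0.086 and edgeR adjusted p = 2.7e-07). For both genes the 4 SYN libraries were tightly grouped and lay clear of TH. Efnb3 was higher by 0.54. Of the GPI-anchored ephrin-A ligands, Efna3 and Efna5 were called higher (log2 fold changes 0.85 and 0.71), and Efna1 and Efna2 were not. Part of the exons of Efna3 overlaps an antisense gene (14.1% of its exon length), so its counts are uncertain while the strand setting of the counting is not given in the sources used here.

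Slit1, Slit2 and Slit3, the secreted Robo ligands, were all called higher, by 0.77, 0.35 and 0.53 log2 units. The call of Slit2 was lost without SYN replicate 4 or TH replicate 2 or 3 (edgeR adjusted p 0.0585 to 0.0726) and under upper-quartile scaling, where that of Slit3 was lost too. Of the netrins, Ntn1, the secreted ligand of Dcc and Unc5 receptors, was measured at 6.04, 8.74, 8.23 and 8.06 CPM in SYN, against 3.87, 4.53, 5.02 and 3.28 CPM in TH (a log2 change of 0.90 with SE 0.21 and edgeR adjusted p = 0.00196). All 4 SYN values lay above those of TH. Ntn4, a laminin-related netrin of basement membranes, and Ntn5 were not called (log2 fold changes 0.28 and -0.56).

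Among receptors, 7 of 9 plexins were called higher. Plxna1 (ENSMUSG00000030084, chromosome 6, 89316314 to 89362620) was measured at 203, 188, 198 and 175 CPM in SYN, against 71.1, 65.1, 68.3 and 74.9 CPM in TH (a log2 change of 1.46 with SE 0.075 and edgeR adjusted p = 1.98e-09). Plxna4, the partner of neuropilins in class 3 signalling and a direct receptor of class 6 ligands, was measured at 237, 261, 272 and 234 CPM in SYN, against 106, 106, 101 and 98 CPM in TH (a log2 change of 1.29 with SE 0.075 and edgeR adjusted p = 5.42e-09). In both genes every SYN library lay far above every TH library. Of the exon length of Plxna1, 10.7% overlaps an antisense gene. Plxnb1, the Sema4d receptor, averaged 63.7 ± 5.65 CPM in SYN and 34 ± 1.96 CPM in TH (a log2 change of 0.92 with SE 0.088 and edgeR adjusted p = 7.33e-07). Plxnc1, the Sema7a receptor, averaged 67.3 ± 10.8 and 36.8 ± 0.785 CPM in SYN and TH (a log2 change of 0.88 with SE 0.10 and edgeR adjusted p = 6.24e-06). Plxna2 and Plxnb2 were higher by 0.71 and 0.55, and Plxna3 was not called (0.024). Both neuropilins were called, Nrp2 with 71.5 ± 9.93 CPM in SYN and 39.5 ± 2.47 CPM in TH (a log2 change of 0.86 with SE 0.10 and edgeR adjusted p = 7.21e-06) and Nrp1 with a log2 fold change of 0.46.

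The 4 EphA receptors called higher were Epha4 (0.79), Epha6 (0.60), Epha7 (0.52) and Epha5 (0.50). The other tested members Epha2, Epha3, Epha8 and Epha10 were not called. Ephb1, Ephb3 and Ephb6, of which the last lacks kinase activity, were higher by 0.79, 0.78 and 0.85, and Ephb2 was not called (0.34). Robo1 and Robo2, the main neuronal Slit receptors, were higher by 0.84 and 0.70.

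Of the 5 netrin receptors, 3 were called higher and none lower. Unc5a, a repellent netrin receptor, was measured at 72.9, 90.7, 88.2 and 75 CPM in SYN, against 33.4, 31.3, 34.2 and 31.2 CPM in TH (a log2 change of 1.34 with SE 0.092 and edgeR adjusted p = 2.5e-08), and Unc5b at 20.3, 21.4, 19.6 and 19.5 against 11.4, 11, 10.3 and 8.68 CPM (a log2 change of 0.98 with SE 0.13 and edgeR adjusted p = 1.6e-05). Both stood clear of TH in every library, and Unc5d was called higher by 0.47. Unc5c, of the same family, averaged 44.8 ± 6.57 CPM in SYN and 50.5 ± 2.53 CPM in TH (a log2 change of -0.16 with SE 0.10 and edgeR adjusted p = 0.209), with overlapping groups. Dcc, the attractive netrin receptor, averaged 20.8 ± 3.33 and 19.8 ± 1.2 CPM in SYN and TH (a log2 change of 0.084 with SE 0.13 and edgeR adjusted p = 0.612), with a negative sign under upper-quartile scaling (-0.057). Of the other uncalled genes with high levels, the kinase-dead receptor Epha10 averaged 18.2 ± 2.73 CPM in SYN and 21.6 ± 2.3 CPM in TH (a log2 change of -0.24 with SE 0.13 and edgeR adjusted p = 0.143), and Sema3c 24.7 ± 5.44 and 21.9 ± 3.17 CPM (a log2 change of 0.18 with SE 0.16 and edgeR adjusted p = 0.363). Under upper-quartile scaling Unc5c and Epha10 were called lower.

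The 5 guidance genes called lower in SYN included 3 that are known from blood vessels. Vascular guidance genes did not share 1 direction: Plxnd1, Efnb2, Unc5b and Nrp1, also known from vessels, were called higher (1.46, 0.99, 0.98 and 0.46 log2 units). Robo4, the endothelial member of the Robo family, had 3, 0, 0 and 8 counts in the 4 SYN libraries, against 36, 60, 45 and 65 counts in TH. Its level was 0.235, 0, 0 and 0.478 CPM in SYN, against 1.96, 2.15, 1.72 and 2.15 CPM in TH (a log2 change of -3.33 with SE 0.70 and edgeR adjusted p = 0.00106), so it was close to undetected in every SYN library. Sema3g, a secreted semaphorin of arterial endothelium, was measured at 0.627, 0.224, 0.897 and 0.478 CPM in SYN, against 2.56, 1.65, 2.49 and 1.36 CPM in TH (a log2 change of -1.84 with SE 0.48 and edgeR adjusted p = 0.00532), without overlap. Ephb4, the venous receptor of Efnb2, was measured at 3.22, 1.05, 0.408 and 1.49 CPM in SYN, against 4.2, 2.33, 3.83 and 3.68 CPM in TH (a log2 change of -1.17 with SE 0.45 and edgeR adjusted p = 0.0433). SYN replicate 1 lay inside the TH range, and the call was lost without any one of SYN replicates 2, 3 and 4 or TH replicates 1, 3 and 4 (edgeR adjusted p 0.0587 to 0.107). Endothelial and mural markers moved with Robo4, Sema3g and Ephb4: 11 of 12 were called lower, and Tek and Kcnj8 were at 0 counts in 1 SYN library each. The summed level of these markers was 48.7 to 81.2 CPM in SYN and 211 to 312 CPM in TH. Their part in the result was not tested.

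Robo3, a divergent Robo known from commissural axons, was also called lower in SYN. It was measured at 1.33, 1.87, 1.96 and 2.21 CPM in SYN, against 12.9, 8.19, 7.89 and 8.41 CPM in TH (a log2 change of -2.32 with SE 0.24 and edgeR adjusted p = 1.73e-06), and the groups did not overlap. TH replicate 1 was the highest of its group. Plxnb3, a Sema5a receptor, was measured at 7.53, 5.83, 10.3 and 9.02 CPM in SYN, against 11.7, 10.8, 12.8 and 11.9 CPM in TH (a log2 change of -0.52 with SE 0.18 and edgeR adjusted p = 0.0229). The groups came close without overlapping, and the call was lost without SYN replicate 1 or 2 or TH replicate 3 (edgeR adjusted p 0.0575 to 0.0712). The count of 5 lower genes was 3 without SYN replicate 2 and 3 without TH replicate 3. Nuclear RNA markers, with a summed level of 1592 to 6865 CPM in SYN and 20690 to 24730 CPM in TH, also moved with the comparison, and their part in these results was not tested.

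**Figure D2:**
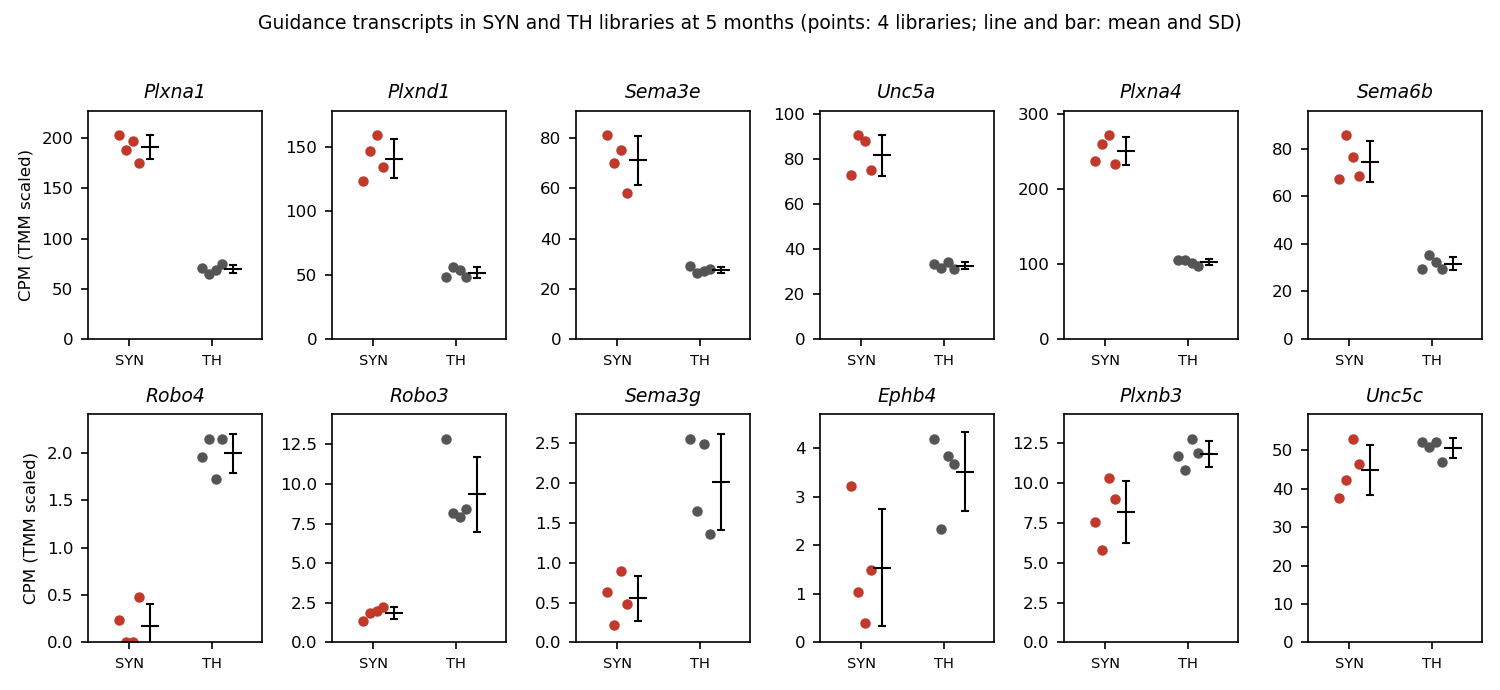
CPM (y axis, linear, from 0) of 12 guidance genes in each 5 months library, SYN left and TH right, with mean and SD over 4 libraries beside the points. The upper row shows the 6 genes furthest above TH, with SYN Plxna1 at 175 to 203 CPM against 65.1 to 74.9 CPM in TH, and the lower row the 5 genes called lower and Unc5c, which was not called.

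Between 5 months and 3 weeks, the membrane-bound semaphorins had the most calls of any guidance family in synaptosomes. Of 64 guidance genes tested, 14 were called lower at 5 months and 4 higher, where 11.3% of all 15344 genes tested were called lower and 13.3% higher (24.6% either way). The median log2 fold change was -0.14 over the guidance genes and 9.69e-05 over all genes. Of 13 membrane-bound semaphorins 7 were called lower and none higher, whereas 1 of 8 EphA receptors and 0 of 3 Slits were called. These counts moved with single libraries. Without 3 weeks SYN replicate 1, whose summed level was the lowest of its group, 25 genes were called lower and 2 higher. The count of 4 higher genes was 2 without 3 weeks SYN replicate 2 (Plxnc1 and a newly called Epha2), 1 without 3 weeks SYN replicate 3 and 2 without 5 months SYN replicate 4. Of the 18 calls, 10 held in all 18 alternative settings.

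**Figure D3:**
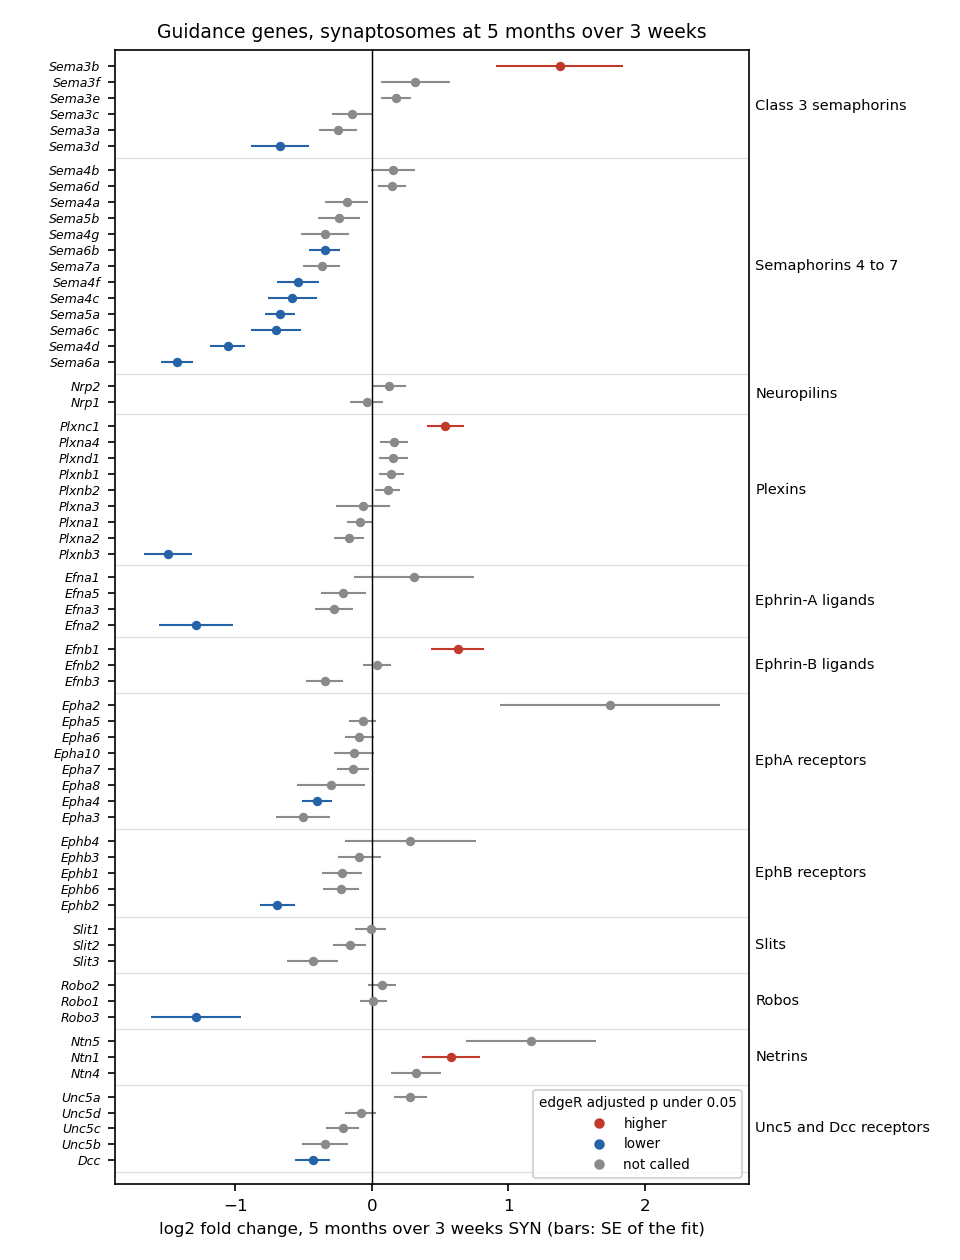
Fitted log2 fold change of 5 months over 3 weeks SYN (x axis) for the 64 guidance genes tested, grouped by family, with SE as bars and calls by colour. The 14 genes called lower include 7 of 13 membrane-bound semaphorins, and Plxnb3 and Sema6a stand furthest to the left of 0.

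The ligand Sema6a, a transmembrane semaphorin that binds Plxna2 and Plxna4, fell at both adult ages. Its level was 130.2, 162, 174 and 172 CPM in the 3 weeks libraries, 52.6, 60.1, 70.7 and 52 CPM at 5 months and 52.2, 77.4, 64.7 and 61.6 CPM at 19 months. Every adult library held under 80 CPM and every 3 weeks library over 130 CPM. The fitted change was -1.43 at 5 months (SE 0.12, edgeR adjusted p = 2.28e-09) and -1.31 at 19 months against 3 weeks (SE 0.12, edgeR adjusted p = 1.16e-08). The comparisons of 5 and of 19 months share the 3 weeks libraries, so their values are given side by side and are not independent.

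Plxnb3 (ENSMUSG00000031385, chromosome X, 73757090 to 73772514) showed the largest fall of a receptor. It was measured at 19, 29.4, 20.6 and 24.1 CPM at 3 weeks, 7.53, 5.83, 10.3 and 9.02 CPM at 5 months and 6.65, 7.13, 8.38 and 9.08 CPM at 19 months. The 3 weeks libraries did not overlap with either adult age. The change was -1.49 at 5 months (edgeR adjusted p = 5.85e-07) and -1.57 at 19 months (edgeR adjusted p = 3.73e-07). Sema4d, a transmembrane ligand of Plxnb1, was measured at 48.4, 72.2, 74.4 and 79.99 CPM at 3 weeks, 27.5, 36.3, 36.4 and 30.9 CPM at 5 months and 33.3, 37.9, 38.1 and 38.3 CPM at 19 months, again with 3 weeks above both adult ages in every library. Its change was -1.05 at 5 months (edgeR adjusted p = 8.32e-07) and -0.89 at 19 months (edgeR adjusted p = 1.15e-05). Oligodendrocyte and oligodendrocyte precursor markers moved with these genes between ages. In SYN over TH at 5 months, 6 of 9 oligodendrocyte and 7 of 8 precursor markers were called higher. Sema6a and Sema4d were called higher there too, and Plxnb3 lower. Of 9 oligodendrocyte markers 8 were called lower at 5 months, with a summed level of 2358 to 2921 CPM at 5 months and 7437 to 10510 CPM at 3 weeks, and all 8 precursor markers were called lower, with 323 to 368 CPM at 5 months and 622 to 780 CPM at 3 weeks. At 19 months 8 oligodendrocyte markers (2338 to 3278 CPM) and 7 precursor markers (282 to 349 CPM) were called lower than at 3 weeks. None of those 17 markers was at 0 counts in any library, and their part in the result was not tested. Of 7 nuclear RNA markers 5 were called higher at 5 months than at 3 weeks. Their summed level was 1592 to 6865 CPM at 5 months and 845 to 1140 CPM at 3 weeks. At 19 months, with 1666 to 2549 CPM, 0 of the 7 were called against 3 weeks. The part of the nuclear RNA markers in the result was not tested. Of 6 meninges and fibroblast markers 3 were called lower at 5 months and 3 at 19 months, with summed levels of 57.8 to 106 CPM at 5 months and 62.3 to 83.1 CPM at 19 months, against 127 to 196 CPM at 3 weeks, and their part was not tested. Without 5 months SYN replicate 4, 13 guidance genes were called lower.

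Promoter sequence is shown for Plxnb3 and Sema4d as examples from the genes called lower at both adult ages, to let their start regions be compared. In the RefSeq promoters of GRCm38.p6, 250 bases before to 50 after each annotated start, 4 six-base motifs were searched on both strands: the SOX family cores ACAAAG and ACAATG and the E-boxes CAGCTG and CACGTG, which read the same on both strands. They occur in 18.7%, 12.6%, 16.3% and 7.15% of all 32851 promoters, and in 10, 8, 12 and 5 of the 74 promoters of the 58 guidance genes with an entry. Of the 8 genes called lower at both adult ages, 6 have an entry, with 8 promoters, of which 2 hold ACAAAG, 2 hold ACAATG, 2 hold CAGCTG and 0 hold CACGTG. Efna2 is the other gene with ACAAAG. The Plxnb3 promoter (chrX:73756853-73757152, plus strand) holds both SOX cores and the E-box CAGCTG, and 1 of 3 Sema4d promoters (chr13:51748761-51749060, minus strand) holds ACAATG, while another of Sema4d, not shown, holds CAGCTG. Matches on either strand are in capitals (CATTGT is ACAATG read on the other strand), and none overlap. A match is a description of these letters and not a binding site.
Plxnb3 promoter: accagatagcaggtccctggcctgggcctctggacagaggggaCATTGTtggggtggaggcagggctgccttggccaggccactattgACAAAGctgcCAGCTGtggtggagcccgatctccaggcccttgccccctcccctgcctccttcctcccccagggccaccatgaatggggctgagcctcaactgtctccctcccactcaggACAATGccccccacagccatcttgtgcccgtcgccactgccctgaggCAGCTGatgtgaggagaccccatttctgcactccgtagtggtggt
Sema4d promoter: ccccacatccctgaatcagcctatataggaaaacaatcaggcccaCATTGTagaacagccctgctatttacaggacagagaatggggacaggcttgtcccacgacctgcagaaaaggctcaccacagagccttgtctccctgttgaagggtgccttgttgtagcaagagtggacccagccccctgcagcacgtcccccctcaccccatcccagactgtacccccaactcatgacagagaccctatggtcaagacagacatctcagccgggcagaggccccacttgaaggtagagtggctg

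Efna2, Ephb2 and Epha4 were the ephrin and Eph genes called lower with age in the main fit. Efnb3 and Epha3 were called lower at 5 months with no filter and with the replicate block. They were also called lower without 3 weeks SYN replicate 1 or 5 months SYN replicate 2 (edgeR adjusted p 0.0138 to 0.0383 over these settings). Without 3 weeks SYN replicate 1, Efna3, Epha7, Ephb1 and Ephb6 were called lower at 5 months too. Efna2, an ephrin-A ligand, was measured at 4.89, 7.45, 5.73 and 5.91 CPM at 3 weeks, 2.04, 3.96, 1.96 and 1.79 CPM at 5 months and 2.64, 3.6, 2.3 and 3.03 CPM at 19 months. One 5 months library, replicate 2, stood above the other 5 months libraries but still below 3 weeks. The change was -1.29 at 5 months (edgeR adjusted p = 0.000943) and -1.04 at 19 months (edgeR adjusted p = 0.00708). Ephb2, a receptor of ephrin-B ligands that associates with NMDA receptors at excitatory synapses, was measured at 22.3, 24.7, 26.3 and 26.6 CPM at 3 weeks, 16.8, 14, 14.3 and 16.1 CPM at 5 months and 17.6, 15.1, 15.9 and 18.5 CPM at 19 months. The ranges of the adult ages lay below that of 3 weeks, with changes of -0.69 (edgeR adjusted p = 0.000228) and -0.57 (edgeR adjusted p = 0.00195). Epha4 averaged 267 ± 48.9 CPM at 3 weeks, 200.3 ± 18.6 CPM at 5 months and 210.3 ± 20.4 CPM at 19 months. Its groups overlapped through 3 weeks SYN replicate 1, at 200.5 CPM. The change was -0.40 (edgeR adjusted p = 0.00833) at 5 months and -0.34 (edgeR adjusted p = 0.0282) at 19 months, of which the second was lost without 3 weeks SYN replicate 2 or 3 or 19 months SYN replicate 1, 2 or 4, and with 5 months SYN replicate 4 and 19 months SYN replicate 1 left out together (edgeR adjusted p = 0.0697).

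Other ligands called lower at 5 months in the main fit were Sema6c, Sema5a, Sema3d, Sema4c, Sema4f and Sema6b. Sema7a, not called there, was called lower with the mitochondrial genome removed, no filter, the replicate block or all 16 libraries in the fit. It was also called lower without 3 weeks SYN replicate 1 (edgeR adjusted p 4.48e-05 to 0.0466 over these settings). Sema6c, a class 6 membrane ligand, was measured at 7.5, 9.73, 8.9 and 10.6 CPM at 3 weeks, 4.55, 6.43, 4.89 and 6.33 CPM at 5 months and 9.29, 8.79, 9.21 and 7.89 CPM at 19 months. The 5 months libraries lay below both other ages, with a log2 change against 3 weeks of -0.70 (edgeR adjusted p = 0.00559). Sema5a was measured at 74.2, 101, 85.6 and 73.2 CPM at 3 weeks, 45.5, 56.4, 58 and 47.5 CPM at 5 months and 55.7, 56.4, 68.2 and 53.4 CPM at 19 months, and fell at both adult ages (-0.67, edgeR adjusted p = 6.95e-05, and -0.51, edgeR adjusted p = 0.00159). The other 4 had smaller or less stable changes at 5 months, of -0.67 for Sema3d, -0.58 for Sema4c, -0.54 for Sema4f and -0.34 for Sema6b (edgeR adjusted p 0.0118 to 0.028), and each of those calls was lost when 1 library was left out. Those libraries were 3 weeks SYN replicates 3 and 4 for Sema3d and Sema4f, 5 months SYN replicate 1 for Sema4c, and 3 weeks SYN replicates 2 and 4 and 5 months SYN replicates 1 and 4 for Sema6b. The Sema3d call was also lost with the replicate number as a block and in a fit of all 16 libraries (edgeR adjusted p 0.0776 and 0.0758), and that of Sema6b in a fit of only the 8 libraries compared and with 5 months SYN replicate 4 and 19 months SYN replicate 1 left out together (edgeR adjusted p 0.0584 and 0.0797).

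Of the Robo, Slit and netrin systems, Robo3 and Dcc fell. Robo3 was measured at 2.69, 6.34, 3.63 and 5.63 CPM at 3 weeks, 1.33, 1.87, 1.96 and 2.21 CPM at 5 months and 4.1, 2.01, 3.59 and 1.56 CPM at 19 months, a low level throughout, and was called lower at 5 months (a log2 change of -1.29 with SE 0.33 and edgeR adjusted p = 0.00509) but not at 19 months against 3 weeks (-0.70, edgeR adjusted p = 0.132). Dcc was measured at 25.4, 33.7, 29.2 and 25.5 CPM at 3 weeks, 18.4, 24.7, 17.8 and 22.6 CPM at 5 months and 21.5, 20.7, 21.3 and 23 CPM at 19 months, with every adult library below 3 weeks. The change was -0.43 at 5 months (edgeR adjusted p = 0.0142) and -0.39 at 19 months (edgeR adjusted p = 0.0318). The first call was lost without 3 weeks SYN replicate 2 or 5 months SYN replicate 1 or 3, and the second without 3 weeks SYN replicate 2 or 3 or 19 months SYN replicate 1, 2 or 3, or with 5 months SYN replicate 4 and 19 months SYN replicate 1 both left out (edgeR adjusted p = 0.0615). Robo1, Robo2 and the 3 Slits were not called at any age in the main fit, with log2 fold changes at 5 months against 3 weeks of -0.43 (Slit3) to 0.074 (Robo2). Slit3 was called lower at 5 months with no filter, with the replicate block and without 3 weeks SYN replicate 1 (edgeR adjusted p 0.00142, 0.00295 and 0.017). In those settings it was also called lower at 19 months against 3 weeks (edgeR adjusted p 0.00812, 0.0169 and 0.0374).

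The 4 genes called higher at 5 months were Plxnc1, Efnb1, Sema3b and Ntn1. Plxnc1 was measured at 36.8, 57, 42.5 and 50.9 CPM at 3 weeks, 60.6, 78.9, 73.7 and 56.1 CPM at 5 months and 50.6, 69, 75.2 and 63.9 CPM at 19 months, with changes of 0.54 (edgeR adjusted p = 0.00468) and 0.47 (edgeR adjusted p = 0.0146). Its groups overlapped at both ages, and the 19 months call was lost without 3 weeks SYN replicate 3 or 19 months SYN replicate 2 or 3. Efnb1 was measured at 5.71, 6.73, 7.03 and 9.71 CPM at 3 weeks, 11.1, 11.7, 11.5 and 10.5 CPM at 5 months and 11.5, 17.5, 9.95 and 9.54 CPM at 19 months. All 5 months libraries lay above 3 weeks, and the change was 0.63 (edgeR adjusted p = 0.0176, lost without 3 weeks SYN replicate 2 or 3) at 5 months and 0.74 (edgeR adjusted p = 0.00689, lost without 19 months SYN replicate 2) at 19 months. Sema3b, a secreted class 3 ligand, averaged 2.06 ± 0.93 CPM at 5 months and 0.803 ± 0.315 CPM at 3 weeks (a log2 change of 1.38 with SE 0.46 and edgeR adjusted p = 0.0301), and Ntn1 7.77 ± 1.19 and 5.24 ± 0.811 CPM (a log2 change of 0.58 with SE 0.21 and edgeR adjusted p = 0.0448). Both had overlapping groups, and each call was lost in 6 of the 8 fits that left out 1 library for Ntn1 and in 5 of 8 for Sema3b. In a fit of all 16 libraries neither was called (edgeR adjusted p 0.0524 for Ntn1 and 0.0518 for Sema3b), and Ntn1 was not called with no filter on low counts or with 5 months SYN replicate 4 and 19 months SYN replicate 1 left out together (edgeR adjusted p 0.0656 and 0.0547). Markers of other cell types were also called higher at 5 months than at 3 weeks. They were 3 of 8 microglia markers (summed level 156 to 176 CPM at 5 months and 112 to 174 CPM at 3 weeks), 4 of 10 tested endothelial and mural markers (48.7 to 81.2 CPM at 5 months and 41.8 to 48.5 CPM at 3 weeks) and 4 of 8 neuronal synapse markers, of which 1 more was called lower (10310 to 12090 CPM at 5 months and 9253 to 9663 CPM at 3 weeks). Of 8 astrocyte markers 1 was called higher and 2 lower. The part of these markers in the genes called higher was not tested.

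At 19 months against 3 weeks, 8 of 64 guidance genes were called lower and 6 higher, where 9.44% of all genes tested were called lower and 10% higher (19.4% either way). The median log2 fold change was -0.030 over the guidance genes and 0.0027 over all genes. Without 3 weeks SYN replicate 1, 16 were called lower. The count of 6 higher genes was 3 without 3 weeks SYN replicate 3, 2 without 19 months SYN replicate 2 and 3 without 19 months SYN replicate 3. Without 19 months SYN replicate 1, 9 were called higher and 6 lower. The 8 lower genes were Plxnb3, Sema6a, Efna2, Sema4d, Ephb2, Sema5a, Dcc and Epha4, given above. Among the higher ones, Sema3e was measured at 75.6, 97.8, 99.2 and 75.9 CPM at 19 months, against 56.5, 69.5, 62.8 and 64.9 CPM at 3 weeks (a log2 change of 0.46 with SE 0.11 and edgeR adjusted p = 0.00344), with all 19 months libraries above 3 weeks. Ntn4 was measured at 12.1, 15.5, 10.2 and 11.1 CPM at 19 months, against 6.85, 9.73, 6.3 and 8.58 CPM at 3 weeks (a log2 change of 0.65 with SE 0.18 and edgeR adjusted p = 0.0119), also without overlap, and its call was lost without 3 weeks SYN replicate 3 or 19 months SYN replicate 2. Unc5a averaged 90.8 ± 12.7 CPM at 19 months and 67.8 ± 12 CPM at 3 weeks (a log2 change of 0.43 with SE 0.12 and edgeR adjusted p = 0.0133, lost without 19 months SYN replicate 3 or 4), and Plxnb2, a Sema4c receptor, 61.7 ± 2.28 and 51.2 ± 3.3 CPM (a log2 change of 0.28 with SE 0.09 and edgeR adjusted p = 0.0299, lost without 3 weeks SYN replicate 3 or 19 months SYN replicate 2, 3 or 4, with no filter and in a fit of all 16 libraries, at edgeR adjusted p 0.106 and 0.111). At 19 months against 3 weeks 4 of 8 microglia markers were called higher (summed level 178 to 269 CPM at 19 months and 112 to 174 CPM at 3 weeks), as were 1 of 10 endothelial and mural markers (51.3 to 56.1 CPM at 19 months and 41.8 to 48.5 CPM at 3 weeks) and 3 of 8 neuronal synapse markers, with 1 more lower (9358 to 11560 CPM at 19 months and 9253 to 9663 CPM at 3 weeks). Of 8 astrocyte markers 1 was called higher and 1 lower, and the part of these markers in the result was not tested.

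**Figure D4:**
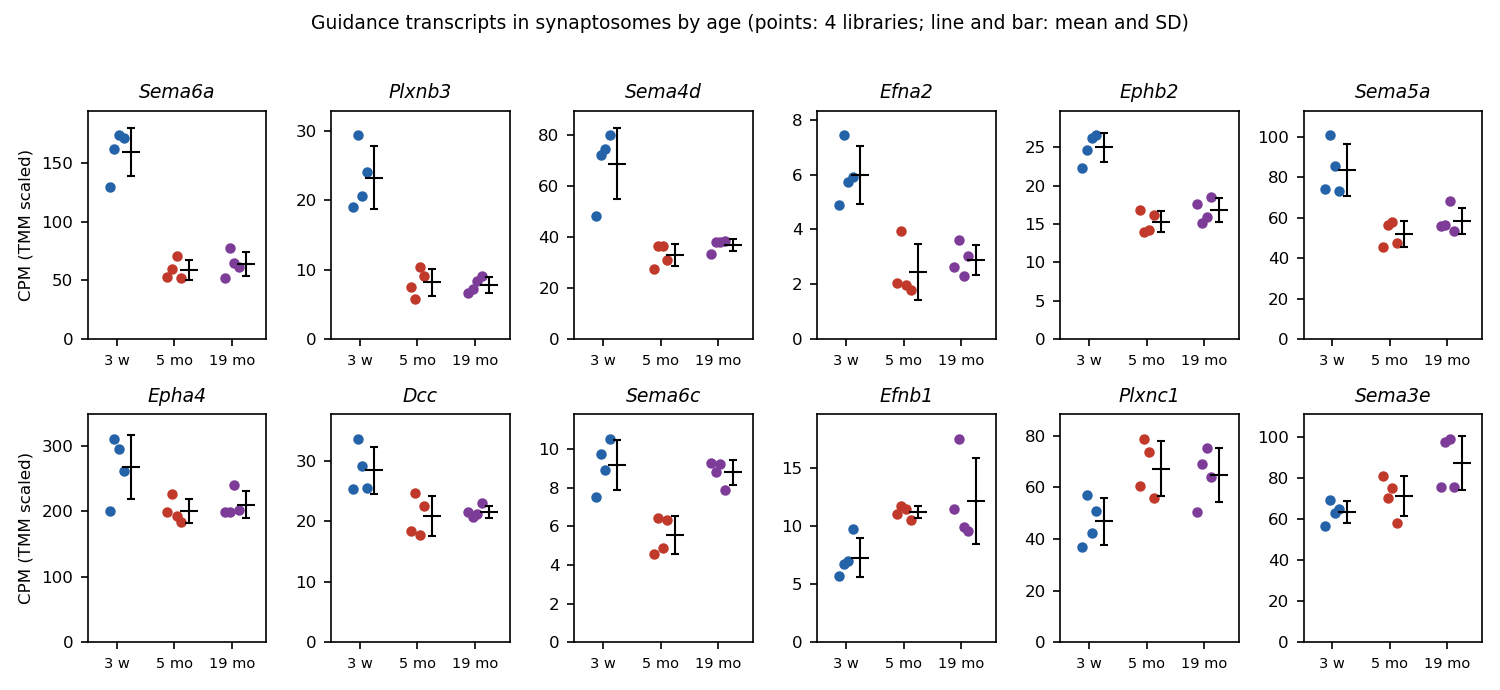
CPM (y axis, linear, from 0) of 12 guidance genes in each synaptosome library at 3 weeks, 5 months and 19 months, with mean and SD over 4 libraries. Sema6a, Plxnb3, Sema4d, Efna2, Ephb2, Sema5a and Dcc lie lower in all adult libraries than at 3 weeks, and Sema6c is low at 5 months alone.

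Between 19 and 5 months, no guidance gene was called by edgeR, where 0.3% of all genes tested (46 of 15344) were called, 0.13% higher and 0.169% lower. At an unadjusted p under 0.05 there were 7 of 64 guidance genes, where 13.7% of all genes tested were under it, and the DESeq2 Wald test called 1 guidance gene, Sema6c, where it called 2.02% of all genes. Sema6c was measured at 9.29, 8.79, 9.21 and 7.89 CPM at 19 months, against 4.55, 6.43, 4.89 and 6.33 CPM at 5 months (a log2 change of 0.65 with SE 0.19 and edgeR adjusted p = 0.105, DESeq2 adjusted p = 0.0326), without overlap of the groups. Of the most abundant genes, Plxna4 averaged 263 ± 30.2 CPM at 19 months and 251 ± 18.6 CPM at 5 months (a log2 change of 0.059 with SE 0.10 and edgeR adjusted p = 0.851), Epha4 210.3 ± 20.4 and 200.3 ± 18.6 CPM (a log2 change of 0.06 with SE 0.11 and edgeR adjusted p = 0.864), Plxna2 212 ± 27.3 and 190.4 ± 19 CPM (a log2 change of 0.15 with SE 0.11 and edgeR adjusted p = 0.593) and Plxna1 220 ± 28.4 and 191 ± 12.2 CPM (a log2 change of 0.19 with SE 0.097 and edgeR adjusted p = 0.38). Against 3 weeks these abundant genes, apart from Epha4, were not called either, with log2 fold changes at 5 months of 0.16 for Plxna4, -0.065 for Epha5, -0.084 for Plxna1 and -0.17 for Plxna2. In all, 22 of the 64 guidance genes tested were called in at least 1 age comparison, where 30.1% of all 15344 genes were.

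Splicing was described from the authors' deposited tables. In the authors' deposited table of LeafCutter, which groups introns that share a splice site into clusters, 19 clusters in 15 guidance genes were tested between 5 months and 3 weeks, and 2 had an adjusted p under 0.05 (6.61% of all 4250 clusters did). Between 19 months and 3 weeks the authors' deposited table had 1 such cluster of 21 (4.81% of all 4176), and between 19 and 5 months 0 of 21 (0.768% of all 4037). Usage values are the authors' fitted means per age and carry no replicate error. In the authors' deposited table of DIEGO, 17 of 946 junctions of guidance genes had a q under 0.05 between 5 months and 3 weeks, against 1.48% of all junctions, 0 of 855 between 19 and 5 months (0%), and 6 of 942 between 19 months and 3 weeks, against 0.69% of all. All junctions under that q sat at 1 p-value, 0.0209, the smallest of the authors' deposited table, which marks none of its junctions as significant. They lay in Dcc, Plxna1, Plxna2, Plxnb1, Plxnb2, Plxnb3, Robo1, Robo2, Sema4c, Sema4d, Sema4f, Sema6a, Sema6b, Slit3 and Unc5d at 5 months, and in Dcc, Epha7, Robo1, Sema3a, Sema5b and Unc5c at 19 months.

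In Epha5, an EphA receptor of cortical neurons, a 66-base coding exon was skipped more often at 19 months than at 3 weeks. The exon lies on chromosome 5 (chr5:84117561-84117626, GRCm38, minus strand) and is part of 4 of 6 protein-coding GENCODE transcripts of the gene. Its sequence is shown because the whole exon is what the junctions leave out or keep, and as 66 is a multiple of 3 the reading frame is kept either way.
Epha5 exon: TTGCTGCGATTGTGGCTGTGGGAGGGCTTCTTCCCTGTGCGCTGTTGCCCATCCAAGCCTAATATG
The skipping junction made up 36.5% of its cluster at 19 months and 22.0% at 3 weeks in the authors' deposited table (adjusted p = 0.00069). In the authors' deposited table for 19 against 5 months it made up 36.7% at 19 months and 18.3% at 5 months (adjusted p = 0.0696), past no threshold. Both junctions into the exon had lower usage at 19 months than at 3 weeks in the authors' deposited table, 40.8% against 50.5% on one side and 22.8% against 27.5% on the other. The gene's own level was not called at any age, at 165 ± 16.1 CPM at 3 weeks, 156 ± 18.1 CPM at 5 months and 168 ± 19.4 CPM at 19 months.

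In Unc5a, exon 3 had acceptors 3 bases apart. The annotated exon (chr13:54995797-54995940, GRCm38, plus strand) is shown with its first 3 bases, at the annotated acceptor, in capitals. The form with the upstream acceptor adds 3 bases in front of it and is in none of the GENCODE transcripts, whereas 2 protein-coding transcripts start the exon where shown.
Unc5a exon 3: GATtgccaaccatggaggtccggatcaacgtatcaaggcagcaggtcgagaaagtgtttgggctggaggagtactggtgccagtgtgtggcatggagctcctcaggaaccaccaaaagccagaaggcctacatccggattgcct
The upstream acceptor made up 5.91% of its cluster at 5 months and 20.7% at 3 weeks in the authors' deposited table (adjusted p = 0.00754). At 19 months it made up 17.1%, against 5.92% at 5 months, in the authors' deposited table (adjusted p = 0.0744). Between 19 months and 3 weeks it made up 16.8% and 20.7% in the authors' deposited table (adjusted p = 0.398).

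In Plxnb2 the cluster under the threshold lay before the coding start. Its introns end at the same annotated second exon, the longer one starting from an annotated first exon. The shorter intron (chr15:89171117-89172374, GRCm38) made up 1.8% of the cluster at 5 months and 21.9% at 3 weeks in the authors' deposited table (adjusted p = 0.0374). At 19 months it made up 12.4%, against 1.77% at 5 months, in the authors' deposited table (adjusted p = 0.176). At a threshold of 0.01 only the Unc5a and Epha5 clusters remained.

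**Figure D5:**
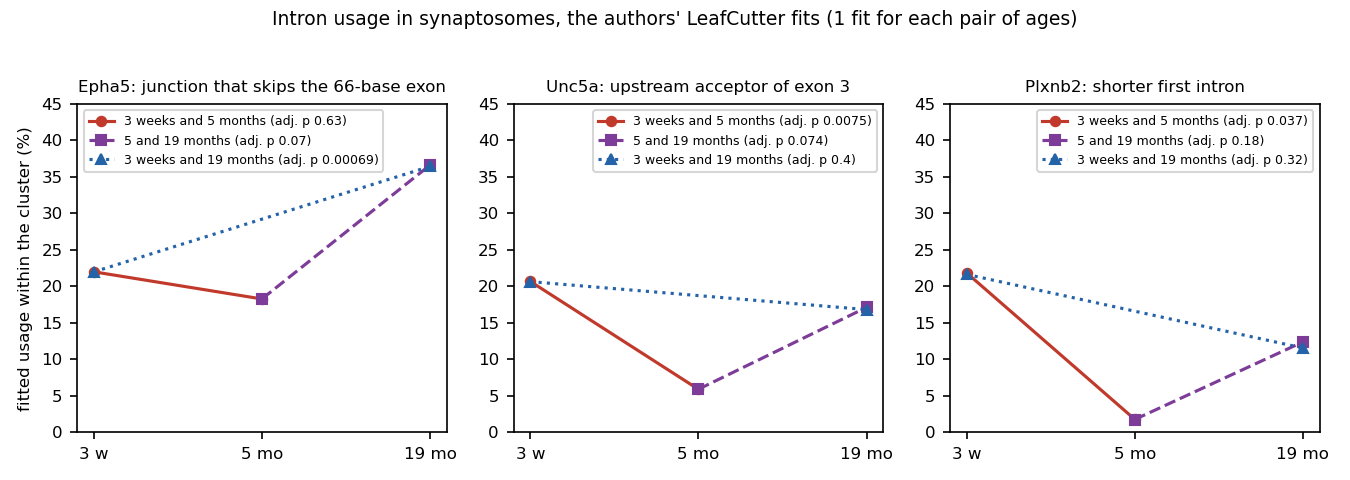
Fitted usage within the cluster (y axis, percent) of 1 junction each of Epha5, Unc5a and Plxnb2 at 3 weeks, 5 months and 19 months, one line for each of the authors' pairwise fits with its adjusted p. Skipping of the Epha5 exon is highest at 19 months (36.5%), and the Unc5a upstream acceptor (5.91%) and the shorter Plxnb2 intron (1.8%) are lowest at 5 months.

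Genes that work beside these ligands and receptors were described from 2 further lists. Of 34 tested adhesion molecules and co-receptors of guidance, 28 were called higher and 1 (Cdon) lower in SYN than in TH, beside 24.5% of all genes called higher and 25.6% lower. The median log2 fold change of this list was 0.76. L1cam, the adhesion molecule that joins neuropilin in semaphorin receptors, averaged 168 ± 11.9 CPM in SYN and 78.2 ± 1.6 CPM in TH (a log2 change of 1.11), the Nogo receptor homologue Rtn4rl1 93.4 ± 11.6 and 35.3 ± 1.48 CPM (1.41), Lingo1 249 ± 34.5 and 94.3 ± 7.11 CPM (1.41) and the netrin-G ligand family member Lrrc4 99.3 ± 11.6 and 37.2 ± 3.35 CPM (1.42). Of 59 intracellular signalling genes, 17 were called higher and 12 lower, with a median of 0.025, beside 50.1% of all genes called either way, among them the Rap regulator Sipa1l1 (1.35), the kinase Src (0.99), the actin regulator Enah (0.70) and the Slit-Robo GTPase activator Srgap3 (0.78).

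With age, 4 of 35 adhesion molecules and co-receptors were called higher and 5 lower at 5 months against 3 weeks, and 5 higher and 4 lower at 19 months against 3 weeks, where 24.6% and 19.4% of all genes tested were called either way at those ages. Met, the receptor of hepatocyte growth factor, averaged 5.81 ± 0.816 CPM at 5 months and 18.3 ± 1.67 CPM at 3 weeks (a log2 change of -1.64, edgeR adjusted p = 3.31e-08), and Draxin, a secreted Dcc ligand, 0.427 ± 0.383 and 2.92 ± 0.904 CPM (-2.72). The netrin-G protein Ntng1 was higher (0.78), as was the planar polarity cadherin Celsr3 (0.58). Of 58 signalling genes, 10 were called higher and 15 lower at 5 months against 3 weeks, beside the same 24.6% of all genes, with cofilin (Cfl1, -0.90), the kinase Fyn (-0.83) and the collapsin response mediator Dpysl3 (-1.01) lower and Sipa1l1 (0.71) higher. At 19 months against 3 weeks 5 were higher and 17 lower, beside 19.4% of all genes, with Dpysl3 at -1.27 and Fyn at -0.86. Between 19 and 5 months neither list had a called gene.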

How the data were processed

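The authors' deposited counts, whole-number reads per gene, cover 48709 genes in 16 libraries. The submitters' processing notes name bcl2fastq 2.20.0.422, cutadapt 1.18, Trimmomatic 0.38, Subread, featureCounts and the build GRCm38.p6. No aligner, strand option or annotation version is stated (not given in the sources used here), and 18S and 28S rRNA were depleted, per the labels. The authors' deposited LeafCutter tables hold, for every cluster, an adjusted p-value, with the usage of each intron as a fraction per age (young, adult and old read as 3 weeks, 5 months and 19 months) and, as a score from the authors, the difference of usage. Their DIEGO tables hold a p-value and q-value per junction. Intron coordinates were checked against exon ends.

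From the counts, edgeR 4.0.16 (R 4.3.3) filtered genes by group with filterByExpr, scaled by TMM and ran quasi-likelihood F tests with robust dispersions, on 8 libraries for SYN against TH and on the 12 SYN libraries for the ages. CPM in the text use TMM over all 16 libraries, and RPKM divides them by exon length. Alternatives were DESeq2 1.42.0 (size factors, Wald test), upper-quartile scaling, the mitochondrial genome removed, no filter, a floor of 1 CPM in 4 libraries, the replicate number as a block, a fit of all 16 libraries, only the 8 libraries compared, and each library left out. Leaving out 5 months SYN replicate 4 and 19 months SYN replicate 1 together was added after seeing the data. No pair of libraries of the same group agreed within sampling noise, and pairs across groups were not checked for this. Promoters are from RefSeq and exons from GENCODE on GRCm38.

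The gene symbols, lists and tests were chosen with earlier results of these data known. For each comparison, genes were named by the size of the log2 fold change, up to 14 called higher and 14 lower with a mean of at least 1 CPM, plus the 4 most abundant uncalled ones, up to 4 of each other list by adjusted p, and those with a splicing call. Other guidance genes were named after their values were seen.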

Additional observations from a re-analysis of the deposited data

Results flagged for a closer look

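In groups of 4 libraries, 1 library was far from the other 3 for 12 of 152 group values examined (37 named guidance genes and their summed level in 4 groups), where chance alone gives about 1 in 20. At 3 weeks, SYN replicate 1 was the lowest for Plxna1 (175 CPM, others 213 to 217), Unc5c (39.3 CPM, others 56.4 to 57.5) and Epha10 (15.1 CPM, others 21.3 to 22.4). It held 51.7% of its counts on mitochondrial rRNAs and the lowest summed level of the guidance genes, 2824 CPM, and the part of this in these values was not tested. Robo4 had 0.141 CPM in 3 weeks SYN replicate 4 and 0 CPM in the other 3.

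In 5 months SYN, Efna2 was high in replicate 2 (3.96 CPM, others 1.79 to 2.04), Plxnb2 was high in replicate 2 (58.8 CPM, others 53.4 to 53.7) and Ntn4 was low in replicate 1 (7.69 CPM, others 10.2 to 10.6). In 19 months SYN, Epha4 was high in replicate 3 (241 CPM, others 199 to 202) and Sema4d was low in replicate 1 (33.3 CPM, others 37.9 to 38.3).

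In 5 months TH, Robo3 was high in replicate 1 (12.9 CPM, others 7.89 to 8.41), Sema3b was high in replicate 4 (6.46 CPM, others 1.47 to 1.95) and Sema5a was low in replicate 2 (28.9 CPM, others 30.6 to 31). Without TH replicate 1, Robo3 was still called lower in SYN, as in each of the 16 alternative settings (log2 fold change -2.46 to -2.13).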

How the results depend on the processing

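Of the calls on guidance genes, 41 of 47 for SYN over TH, 10 of 18 for 5 months over 3 weeks and 7 of 14 for 19 months over 3 weeks held in each alternative setting (16, 18 and 18 settings). Each library of the 2 groups compared was left out in turn. SYN over TH then gave 7612 to 9390 called genes, with 40 to 42 guidance genes higher and 3 to 5 lower. 5 months over 3 weeks gave 2694 to 3897 genes, with 1 to 5 guidance genes higher and 11 to 25 lower, and 19 months over 3 weeks 2110 to 2966 genes, with 2 to 9 higher and 6 to 16 lower. The 46 genes called between 19 and 5 months became 0 to 124 with a library of these ages left out. They were 124 without 5 months SYN replicate 2, 0 without 19 months SYN replicate 3 and 2 to 17 without any other library of these ages. The 3 weeks libraries, also in that fit, were not left out for this comparison. They were 292 with no filter, 264 with the replicate block, 28 with all 16 libraries, 310 with the DESeq2 Wald test, 320 with only the 8 libraries and 5 without 5 months SYN replicate 4 and 19 months SYN replicate 1, and the guidance genes called were 0 in these except 1 higher with the DESeq2 Wald test. With all 16 libraries in the fit, 2 guidance genes were higher at 5 months against 3 weeks. At the stricter threshold of 0.01, 1 LeafCutter cluster was called in that comparison, against 2. The cause was not tested in these cases. Signs changed for uncalled genes near 0: Dcc in SYN over TH at 5 months (-0.057 with upper-quartile scaling, -0.002333 to 0.15 with a library left out, the lowest without 5 months SYN replicate 2), Plxna2 at 19 months over 3 weeks (0.0023 with upper-quartile scaling, 0.070 without those 2 libraries, -0.11 to 0.068 with a library left out), Epha5 there (-0.024 to 0.10) and Epha4 at 19 over 5 months (-0.011 to 0.12). Same-numbered SYN and TH libraries correlated at 0.0884, 0.02, 0.0176 and 0.144 after group means were removed, and different-numbered ones at -0.0942 to 0.0755. Same-numbered ages correlated at -0.0262 to 0.0926, and different-numbered ones at -0.093 to 0.122. Such values cannot decide whether same-numbered libraries are pairs, and the main fits did not take them as pairs. The names of the count columns give same-numbered 5 months SYN and TH libraries 1 further shared number, whose meaning the labels do not state. The replicate block called 42 guidance genes higher and 5 lower for SYN over TH (8554 genes in all), 5 and 17 at 5 months over 3 weeks (4070), 7 and 9 at 19 months over 3 weeks (3394) and none at 19 over 5 months (264). Depth limits the genes with a mean under 1 CPM in all 3 SYN groups. Robo4, Sema3g, Epha1 and Efna4 were not tested between ages. Epha2 (0.201, 0.684 and 0.872 CPM at 3 weeks, 5 months and 19 months) was not called at 19 months over 3 weeks (log2 fold change 2.08, edgeR adjusted p = 0.067), but was called higher there with the replicate block (0.0303), by the DESeq2 Wald test (0.0491) and without 3 weeks SYN replicate 2 (0.00817).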
